A study of Danio rerio with 6 samples.

Results

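The genes described here are the machinery that builds ribosomes in the nucleolus, together with the Myc transcription factors, in adult zebrafish liver. They were given as a list of 56 zebrafish gene names, matched by symbol to the Ensembl IDs of the count table. In all, 45 names matched, to 45 of the 25640 genes in the table. The other 11 names (nop58, pes, nop10, nop14, rrp1, utp6, utp18, utp20, polr1a, imp3 and heatr1) matched no symbol under this rule and were not analysed here. Both myca and mycb led to an ID whose symbol is MYC, ENSDARG00000007241 and ENSDARG00000045695, and the table of names does not tell which ID is which paralog. The symbols MYC, FBL and others in capitals are those of the name table and stand for zebrafish genes.

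The series compared livers of adult fish of the lf:Yap genotype with livers of adult WT fish. Each group had 3 libraries of polyadenylated RNA, numbered 1 to 3, from whole dissected livers. In the published description of this line the transgene is an activated Yap1 under a liver fatty acid binding protein promoter, which is active in hepatocytes. The labels do not give the promoter, the age or sex of the fish, or whether a library came from 1 fish or a pool, so a p-value here reflects how far these libraries spread, technical sources included.

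Ribosome assembly starts when RNA polymerase I copies the long precursor of the ribosomal RNAs. Small nucleolar ribonucleoproteins (snoRNPs) modify that precursor, the small subunit processome folds and cuts it, and separate sets of factors then finish the small (40S) and the large (60S) subunit. Myc is a transcription factor known to drive genes of all these steps, and ribosome output is a known part of liver growth. Yap, the target of the Hippo pathway, is a transcriptional coactivator known for its control of liver size.

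Libraries held 76038709 to 85208212 gene counts in the lf:Yap group and 71581315 to 87543545 in the WT group. Values below are CPM, a gene's share of a library's counts scaled to a common library size with TMM factors, and fold changes are lf:Yap over WT with their standard error (SE). The transcript of the targeted gene checks the labels: YAP1 (ENSDARG00000068401) stood at 443, 386 and 291 CPM in lf:Yap livers and at 22.6, 27.4 and 20.4 CPM in WT livers, a log2 fold change of 3.99 ± 0.25 (adjusted p = 0.00663, edgeR). Of 24674 genes tested, 137 were higher and 27 lower in lf:Yap livers at an adjusted p under 0.05. Summed markers of hepatocytes, 9 genes, ran from 91526 to 92804 CPM in lf:Yap livers and from 70096 to 76278 CPM in WT livers, with none at 0. The sum follows the most abundant markers, and the 9 did not move together. Groups did not overlap for 2 of them higher and 1 lower in lf:Yap livers (8.84% and 8.78% of all tested genes). Relative to each marker's mean log2 level, the medians were 0.06, 0.06 and −0.05 in lf:Yap livers and −0.02, −0.01 and −0.18 in WT livers. In bulk RNA, fewer cells of a type and less RNA per cell cannot be told apart.

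One library stood apart for these genes. WT replicate 3 had the highest level of 40 of the 45 genes, or 88.9%, whereas it was the highest library for 21.7% of all tested genes and for 27.7% of tested genes averaging 5 CPM or more. The genes and the wider lists below were chosen with earlier results of these data known, so such shares are descriptions only. In 14 of the 45 genes WT replicate 3 was more than 2 times the next library, a margin it had in 1.12% of all tested genes. The exceptions to its lead were RRS1, DKC1 and nolc1, highest in lf:Yap replicate 1, and both MYC genes. Under other scalings of the libraries WT replicate 3 led in 39 or 40 of the 45 genes, and in 34 of the 39 that passed a stricter filter on low values.

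**Figure D1:**
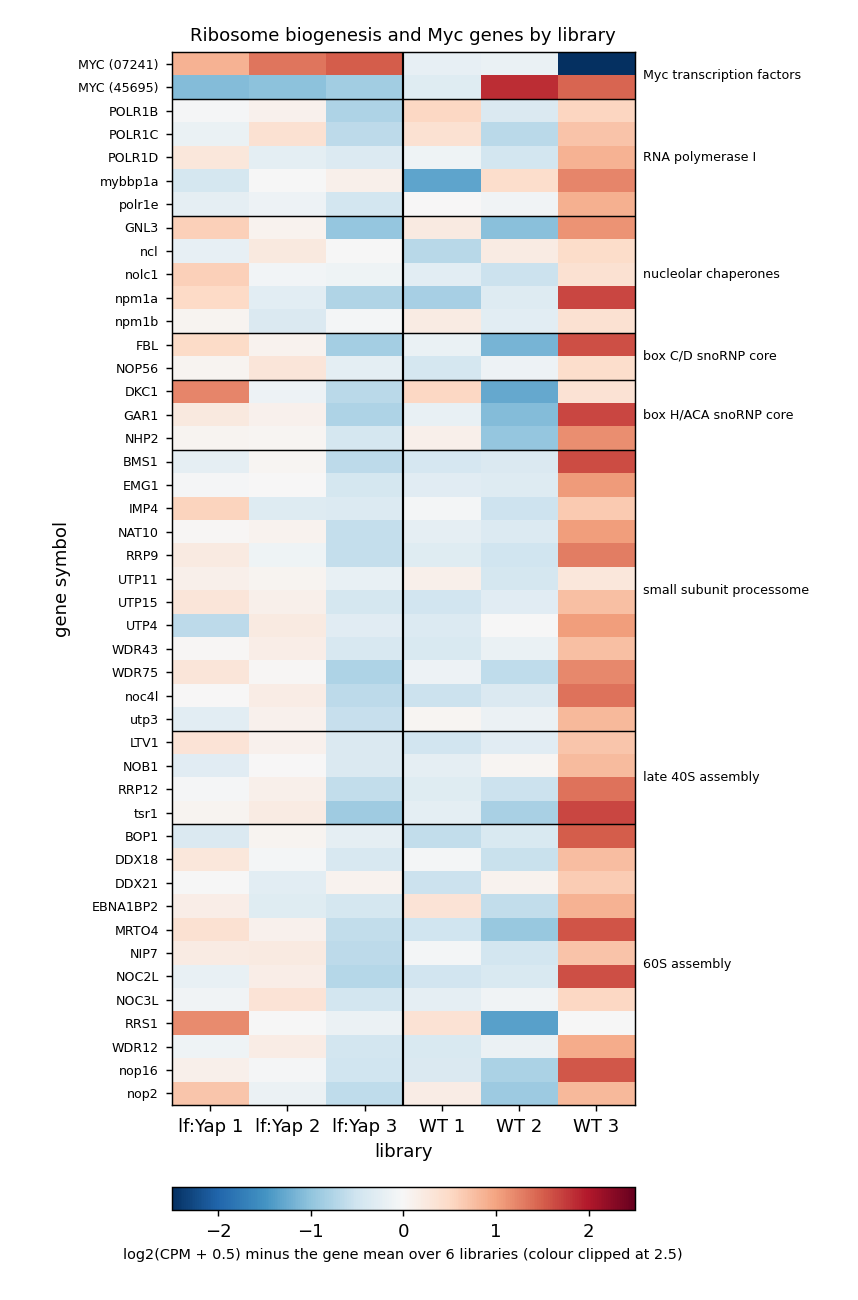
Level of each of the 45 genes in each of the 6 libraries, lf:Yap on the left and WT on the right. Colour gives log2(CPM + 0.5) minus the gene's mean over the 6 libraries, and genes are grouped by role; the column of WT replicate 3 is the highest for 40 of the 45 genes, and lf:Yap replicate 3 is the lowest for 17.

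The remaining libraries were not level either. Relative to each gene's mean log2 level over the 6 libraries, the median of the 43 genes other than MYC lay at 0.08, 0.08 and −0.46 in lf:Yap replicates 1, 2 and 3, and at −0.23, −0.37 and 0.87 in WT replicates 1, 2 and 3. Across all tested genes these medians stayed between −0.01 and 0.01. For tested genes averaging 5 CPM or more they ran from −0.09 in WT replicate 1 to 0.06 in WT replicate 3. The lowest library was lf:Yap replicate 3 for 17 of the 45 genes (15.1% of all tested genes) and WT replicate 2 for 16 (16.4% of all tested genes). Thus each group held a library near the bottom of the range, and the WT group also held the one at the top. The summed level of the 43 genes was 1638, 1665 and 1430 CPM in lf:Yap livers and 1175, 1551 and 2813 CPM in WT livers. In every library a large part of this sum came from ncl and DDX21, so its order need not be that of most genes. The ratio of WT replicate 3 to the mean of the other WT libraries had a median of 2.32 over the 43 genes, from 1.2 for RRS1 to 5.33 for MRTO4. Its median was 0.98 over all tested genes and 1.06 over those averaging 5 CPM or more.

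**Figure D2:**
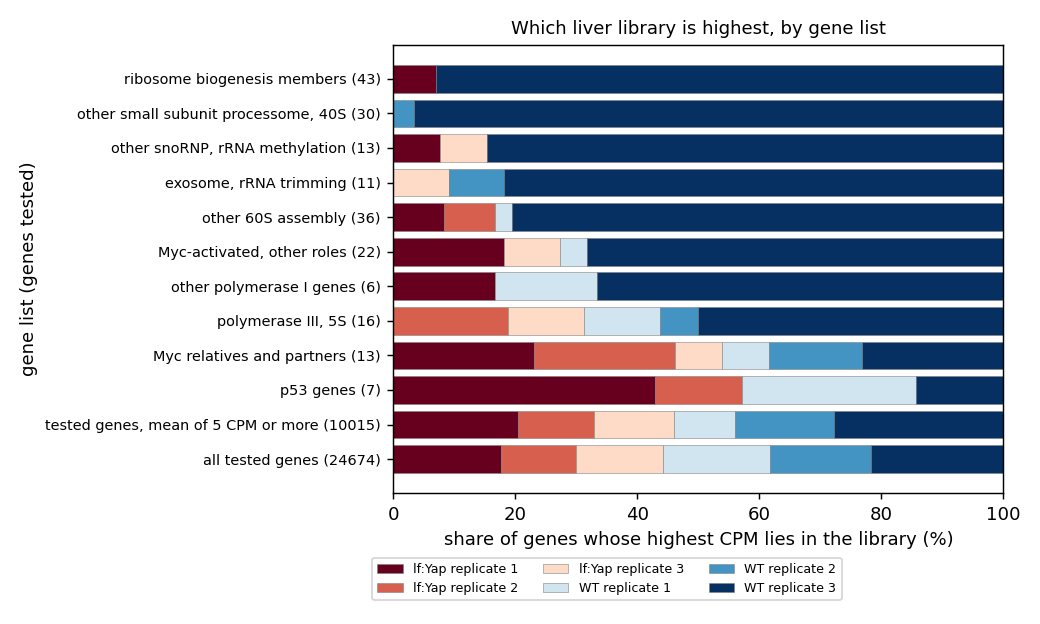
Share of genes (horizontal axis, %) whose highest CPM lies in each library, for the 43 genes other than MYC, for the wider gene lists described further on and for all tested genes; red shades are lf:Yap libraries and blue shades WT libraries. WT replicate 3, the darkest blue, holds 93.0% of the 43 genes and 21.7% of all tested genes.

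All 45 genes passed the filter on low counts and were tested. None changed at an adjusted p under 0.05 (edgeR), where 0.555% of all tested genes were higher and 0.109% lower. The smallest adjusted p was 0.121. At p under 0.05 without adjustment, 1 gene was higher and 1 lower, both of them MYC, against 6.12% higher and 5.2% lower among all tested genes. DESeq2 called 0 higher and 1 lower (MYC, ENSDARG00000045695), where it called 2.93% and 1.64% of all genes given an adjusted p. Limma-voom called 0 of the 45 in either direction, and 0.636% higher and 0.122% lower of all tested genes. The log2 fold change was below 0 for 40 of the 45 genes, against 53.2% of all tested genes and 49.2% of those averaging 5 CPM or more. Its median was −0.47, against −0.03 for all tested genes.

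That downward lean depended most on WT replicate 3. Without it the log2 fold change was above 0 for 36 of the 45 genes, against 49.2% of all tested genes and 58.1% of those averaging 5 CPM or more. The median became 0.23, and 31 of the 45 genes had the opposite sign. Leaving out lf:Yap replicate 3 instead weakened the lean, with 32 of the 45 genes below 0 and a median of −0.25. Without WT replicate 3, again 0 genes passed an adjusted p under 0.05 (edgeR), where 0.108% of all tested genes were higher and 0.0199% lower. At p under 0.05 without adjustment 1 was higher and 1 lower, where all tested genes gave 5.48% and 5.44%. With all 6 libraries the groups did not overlap for 1 gene higher and 2 lower in lf:Yap livers (8.84% and 8.78% of all tested genes). Without WT replicate 3 this held for 3 higher and 2 lower (14.7% and 14.6%). No difference between genotypes thus passed the edgeR test in these genes, with all 6 libraries or without WT replicate 3. DESeq2 called 1 of them, MYC (ENSDARG00000045695), lower with all 6 libraries. On simulated data the edgeR test found 2 of 50 genes altered by 2-fold, so differences of this size or smaller may be missed.

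**Figure D3:**
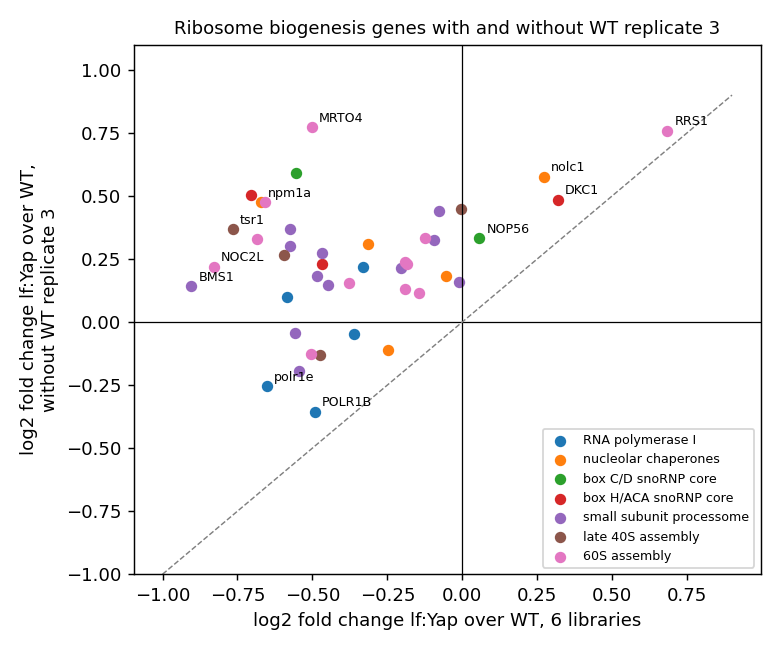
Log2 fold change lf:Yap over WT of the 43 genes other than MYC, with all 6 libraries on the horizontal axis and without WT replicate 3 on the vertical axis; colour gives the role and the dashed line marks equal values. The points lie above the line because WT replicate 3 exceeded the mean of the other WT libraries in each of the 43 genes. Most cross from below 0 to above 0.

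RNA polymerase I is represented by 4 of its subunits and by mybbp1a, a nucleolar protein that binds its machinery. All 5 were highest in WT replicate 3, and all 5 had a log2 fold change below 0. The gene polr1e, a subunit that helps initiation and elongation, stood at 4.93, 5.33 and 4.13 CPM in lf:Yap livers and at 5.89, 5.45 and 11.3 CPM in WT livers. It was the only gene besides MYC whose groups did not overlap, yet WT replicate 2 exceeded lf:Yap replicate 2 by a small margin, and the log2 fold change of −0.65 ± 0.33 did not pass (adjusted p = 0.527, edgeR). POLR1B, the second largest subunit, stood at 9.42, 10.5 and 5.45 CPM in lf:Yap livers and at 13.9, 7.42 and 14.2 CPM in WT livers. Here WT replicate 1 was nearly as high as WT replicate 3, and WT replicate 2 was below the top lf:Yap libraries.

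POLR1C and POLR1D are subunits that RNA polymerase I shares with RNA polymerase III. POLR1C stood at 5.33, 8.0 and 3.63 CPM in lf:Yap livers and at 8.02, 3.55 and 10.2 CPM in WT livers. POLR1D stood at 3.86, 2.53 and 2.33 CPM in lf:Yap livers and at 2.84, 2.11 and 6.02 CPM in WT livers. For both, the groups overlapped, since WT replicate 2 was the lowest of all 6 libraries. The gene mybbp1a had 4.02, 5.61 and 6.18 CPM in lf:Yap livers and 1.97, 7.81 and 13.9 CPM in WT livers, so WT libraries held both ends of its range.

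Nucleolin and the nucleophosmins are abundant nucleolar chaperones that bind pre-ribosomes. Nucleolin (ncl) had 441, 600.2 and 505 CPM in lf:Yap livers and 317, 586 and 703 CPM in WT livers, and lf:Yap libraries fell within the WT range. The nucleophosmin gene npm1a stood at 109, 63.6 and 45.1 CPM in lf:Yap livers and at 43.0, 60.6 and 243 CPM in WT livers. WT replicate 3 was 2.23 times the next library, lf:Yap replicate 1, while WT replicate 1 was the lowest of the 6. The log2 fold change of npm1a was −0.67 ± 0.67 with all libraries and 0.48 without WT replicate 3, and neither passed (adjusted p = 0.798 and 0.729, edgeR).

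The second nucleophosmin gene, npm1b, was nearly level, with 7.68, 5.56 and 7.0 CPM in lf:Yap livers and 8.47, 5.96 and 9.60 CPM in WT livers. The gene nolc1 encodes a chaperone that carries snoRNPs within the nucleolus. It had 27.0, 16.7 and 16.4 CPM in lf:Yap livers and 14.6, 12.0 and 23.2 CPM in WT livers, with lf:Yap replicate 1 on top. Its log2 fold change was 0.27 ± 0.32 (adjusted p = 0.840, edgeR), and −0.0025 without lf:Yap replicate 1. GNL3, or nucleostemin, a nucleolar GTPase of proliferating cells, had 32.3, 22.7 and 10.6 CPM in lf:Yap livers and 24.8, 10.1 and 46.7 CPM in WT livers.

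Box C/D snoRNPs add methyl groups to ribosomal RNA, and 2 of their core proteins were measured. FBL, the methyltransferase fibrillarin, stood at 35.7, 27.3 and 14.0 CPM in lf:Yap livers and at 22.7, 11.1 and 79.5 CPM in WT livers. WT replicate 3 was 2.23 times the next library, and WT replicate 2 was the lowest. The log2 fold change of FBL was −0.56 ± 0.70 (adjusted p = 0.852, edgeR), and 0.59 without WT replicate 3 (adjusted p = 0.721). NOP56, a scaffold protein of the same particle, stood at 94.3, 110.2 and 75.2 CPM in lf:Yap livers and at 65.7, 81.2 and 122 CPM in WT livers, so WT replicate 3 led by a far smaller margin than in FBL.

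Box H/ACA snoRNPs turn uridines of ribosomal RNA into pseudouridines, and their core proteins did not follow one pattern. DKC1, the pseudouridine synthase dyskerin, had 27.3, 10.5 and 6.99 CPM in lf:Yap livers and 16.6, 4.43 and 14.9 CPM in WT livers. Its highest level was in lf:Yap replicate 1, and its log2 fold change of 0.32 ± 0.63 (adjusted p = 0.914, edgeR) became −0.45 without that library and −0.074 without WT replicate 2. GAR1, a partner protein of dyskerin, had 11.7, 10.5 and 5.56 CPM in lf:Yap livers and 8.56, 4.38 and 32.5 CPM in WT livers. NHP2, which binds the guide RNA, had 8.96, 8.77 and 6.13 CPM in lf:Yap livers and 9.30, 4.11 and 19.6 CPM in WT livers. WT replicate 3 was 2.76 times the next library for GAR1 and 2.10 times for NHP2, whereas for DKC1 it was below both lf:Yap replicate 1 and WT replicate 1. All 3 genes were lowest in WT replicate 2.

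The small subunit processome, the assembly that folds and cuts the early precursor, held 12 of the genes. All 12 were highest in WT replicate 3, and 8 of the 12 were lowest in lf:Yap replicate 3. All 12 had a log2 fold change below 0 with all libraries (median −0.48), and 10 were above 0 without WT replicate 3 (median 0.20). BMS1, a GTPase of the processome, stood at 10.6, 13 and 7.79 CPM in lf:Yap livers and at 9.20, 9.61 and 39.96 CPM in WT livers. WT replicate 3 was 3.07 times the next library, the widest margin among the 45 genes, and the other 5 libraries of BMS1 lay within one narrow range. With all 6 libraries the log2 fold change was −0.90 ± 0.59 (adjusted p = 0.651, edgeR) and 0.14 without WT replicate 3.

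Other processome genes showed the lead of WT replicate 3 less strongly. The gene utp3, a subunit of the processome, stood at 9.23, 12.2 and 7.41 CPM in lf:Yap livers and at 11.6, 10.2 and 20.2 CPM in WT livers. Its log2 fold change of −0.54 ± 0.33 (adjusted p = 0.616, edgeR) was −0.19 without WT replicate 3. UTP4, known in humans as cirhin and tied there to a childhood liver disease, stood at 17.96, 33.4 and 23.5 CPM in lf:Yap livers and at 22.6, 28.5 and 59.3 CPM in WT livers. WT replicate 3 was 1.77 times the next library, and the other 5 libraries of the groups overlapped. For the remaining processome genes (noc4l, RRP9, UTP11, UTP15, WDR43, WDR75, EMG1, IMP4 and NAT10) WT replicate 3 was between 1.08 times (IMP4) and 2.37 times (noc4l) the next library.

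Late 40S assembly factors work on the small subunit after it leaves the nucleolus or on its way out. NOB1, the nuclease that makes the final cut of the small subunit RNA, stood at 35.9, 44.0 and 33.8 CPM in lf:Yap livers and at 37.0, 45.2 and 75.6 CPM in WT livers. With all 6 libraries the log2 fold change was −0.47 ± 0.30 (adjusted p = 0.636, edgeR) and −0.13 without WT replicate 3. The gene tsr1, which encodes a GTPase-like factor that keeps the immature subunit inactive, stood at 19.2, 21.3 and 9.69 CPM in lf:Yap livers and at 15.4, 10.3 and 59.6 CPM in WT livers. Its log2 fold change of −0.77 ± 0.66 (adjusted p = 0.757, edgeR) became 0.37 without WT replicate 3, which was 2.80 times the next library.

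The export factors LTV1 and RRP12 completed this set. RRP12 had 26.3, 29.5 and 17.5 CPM in lf:Yap livers and 21.9, 18.4 and 70.4 CPM in WT livers. LTV1 had 18.2, 15.3 and 10.98 CPM in lf:Yap livers and 10.01, 11.5 and 23.2 CPM in WT livers. In both genes WT replicates 1 and 2 lay below lf:Yap replicates 1 and 2, and WT replicate 3 lay above all of them.

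Of the 60S assembly factors, 12 were measured and 11 were highest in WT replicate 3. BOP1 and WDR12 belong to the PeBoW complex, which processes the large subunit RNA. BOP1 stood at 13.8, 18.6 and 15.3 CPM in lf:Yap livers and at 11.4, 13.7 and 51.7 CPM in WT livers, so that WT replicates 1 and 2 lay below every lf:Yap library and WT replicate 3 was 2.77 times the next. With all 6 libraries the log2 fold change was −0.68 ± 0.57 (adjusted p = 0.743, edgeR) and 0.33 without WT replicate 3 (adjusted p = 0.657). WDR12 stood at 7.37, 9.14 and 5.72 CPM in lf:Yap livers and at 6.04, 7.19 and 15.7 CPM in WT livers. The third protein of the complex, PES1 (ENSDARG00000018902), fell outside the matching rule and is counted nowhere above, but its values showed the same single high library, with 31.1, 27.5 and 19.8 CPM in lf:Yap livers and 23.4, 26.6 and 80.2 CPM in WT livers.

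The one 60S factor with another order was RRS1, which brings the 5S ribonucleoprotein into the early large subunit. It had 20.2, 8.51 and 7.68 CPM in lf:Yap livers and 11.1, 3.03 and 8.49 CPM in WT livers. Its highest level was in lf:Yap replicate 1, and WT replicate 3 lay near the middle. The log2 fold change of RRS1, 0.68 ± 0.55 (adjusted p = 0.735, edgeR), was the highest among the 43 genes other than MYC and was 0.10 without lf:Yap replicate 1. NOC2L, a factor in nuclear export of the large subunit, had 10.04, 13 and 6.83 CPM in lf:Yap livers and 8.16, 8.81 and 36.1 CPM in WT livers. Its log2 fold change was −0.83 ± 0.60 (adjusted p = 0.697, edgeR) and 0.22 without WT replicate 3.

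Among the remaining 60S factors, MRTO4, a placeholder for the ribosomal stalk, had 9.78, 8.07 and 4.70 CPM in lf:Yap livers and 5.12, 3.59 and 23.2 CPM in WT livers. DDX21, an RNA helicase, had 410.4, 341 and 437 CPM in lf:Yap livers and 281, 436 and 638 CPM in WT livers. WT replicate 3 was thus 1.46 times the next library in DDX21 and 2.37 times in MRTO4. For nop2, nop16, NOC3L, NIP7, DDX18 and EBNA1BP2 it was between 1.096 times (nop2) and 2.78 times (nop16) the next library.

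Neither MYC gene was highest in WT replicate 3, and the 2 MYC genes lay in opposite directions. MYC (ENSDARG00000007241) stood at 379, 522 and 591 CPM in lf:Yap livers and at 179, 184 and 19.4 CPM in WT livers. Every lf:Yap library was above every WT library, and WT replicate 3, the top library of most assembly genes, was by far the lowest, at 0.107 of the mean of the other WT libraries. The log2 fold change was 1.96 ± 0.73, which did not pass (adjusted p = 0.372, edgeR). Without WT replicate 3 it was 1.44 (adjusted p = 0.125, edgeR), and DESeq2 gave 1.96 with an adjusted p of 0.0709.

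The other MYC gene (ENSDARG00000045695) was low in lf:Yap livers, with 0.560, 0.606 and 0.721 CPM, against 1.31, 7.52 and 5.62 CPM in WT livers. Again the groups did not overlap, but WT replicate 1 lay much nearer to the lf:Yap libraries than to the other WT libraries. The log2 fold change was −2.94 ± 0.62 (adjusted p = 0.121, edgeR). It passed with DESeq2 (−2.93, adjusted p = 0.000104) and in edgeR without WT replicate 1 (−3.37, adjusted p = 0.0227), and it did not pass in any other alternative that gave a value. Since the ID could not be tied to myca or mycb, the direction of each named paralog is not given here.

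**Figure D4:**
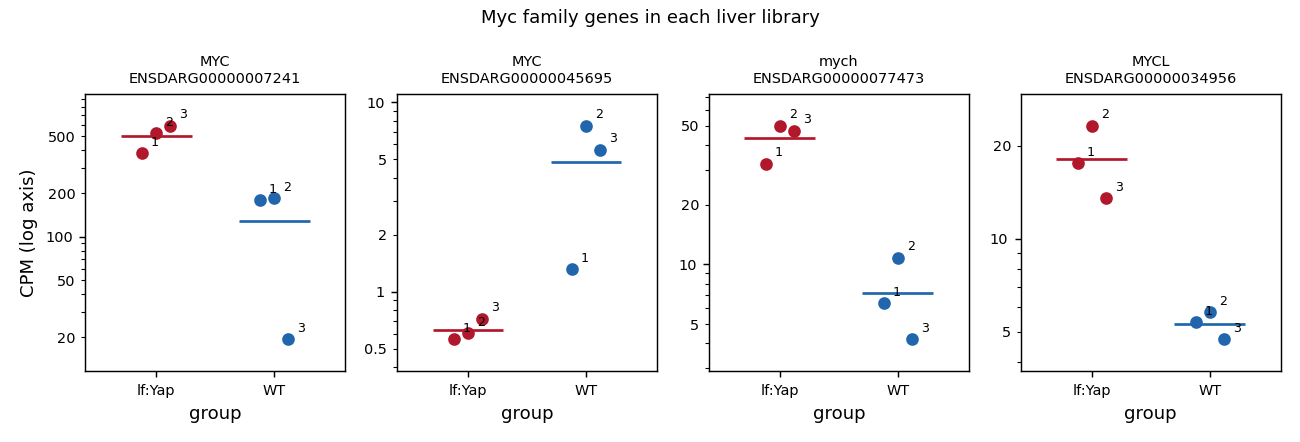
Level in CPM (log axis) of both MYC genes, mych and MYCL in each library, lf:Yap left of WT, with the replicate number beside each point and the group mean as a line. MYC ENSDARG00000007241, mych and MYCL are higher in every lf:Yap library than in every WT library, and MYC ENSDARG00000045695 is lower.

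Myc acts among relatives, partners and antagonists, of which 13 genes were measured. Of these, 2 were higher and 0 lower at an adjusted p under 0.05 (edgeR), where 0.555% of all tested genes were higher and 0.109% lower. Since this list was chosen with earlier results of these data known, the count is no independent evidence of an excess. The median log2 fold change of the 13 was 0.00. The gene mych (ENSDARG00000077473), a Myc homolog known from fish, stood at 32.1, 49.98 and 47.2 CPM in lf:Yap livers and at 6.41, 10.8 and 4.19 CPM in WT livers. It was 6.03-fold higher in lf:Yap livers, a log2 fold change of 2.59 ± 0.39 (adjusted p = 0.0438, edgeR). MYCL (ENSDARG00000034956), the relative called L-Myc in mammals, stood at 17.5, 23.2 and 13.5 CPM in lf:Yap livers and at 5.37, 5.79 and 4.73 CPM in WT livers. It was 3.42-fold higher, a log2 fold change of 1.77 ± 0.26 (adjusted p = 0.0382, edgeR).

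For both genes every lf:Yap library was at least 2 times every WT library. Neither call held when any of the 6 libraries was left out (adjusted p from 0.0623 to 0.128 for mych and from 0.0541 to 0.165 for MYCL, edgeR), although the log2 fold change stayed between 2.31 and 3.02 for mych and between 1.55 and 1.95 for MYCL. With all 6 libraries both genes also passed with DESeq2 (adjusted p = 4.99e-08 for mych and 4.02e-07 for MYCL). Both passed with limma-voom as well (adjusted p = 0.0281 for mych and 0.0401 for MYCL). Both failed in edgeR with a replicate block or with library totals only. MAX, the dimer partner that Myc needs to bind DNA, had the lowest log2 fold change of the 13, leaving out genes whose higher group averaged under 5 CPM. It stood at 30.6, 26.7 and 25.6 CPM in lf:Yap livers and at 33.1, 25.1 and 39.0 CPM in WT livers, a log2 fold change of −0.23 ± 0.22 (adjusted p = 0.789, edgeR).

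Another pair of the 13 had p under 0.05 without adjustment (6.12% of all tested genes were higher at that level), and both are named after their values were seen. FBXW7, the ubiquitin ligase subunit that targets Myc protein, had 13.7, 10.4 and 7.84 CPM in lf:Yap livers and 5.14, 4.77 and 4.76 CPM in WT livers (adjusted p = 0.147, edgeR). MXI1, which competes with Myc for MAX, had 32.1, 26.3 and 33.8 CPM in lf:Yap livers and 22.2, 13.1 and 8.66 CPM in WT livers (adjusted p = 0.306, edgeR). In both, all lf:Yap libraries were above all WT libraries. Of the 13 genes, groups did not overlap for 4 higher and 0 lower (8.84% and 8.78% of all tested genes).

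Myc is also known to activate genes of growth outside ribosome assembly. Of 22 measured, 0 passed, 16 had a log2 fold change below 0, and 15 were highest in WT replicate 3; the median was −0.29, and 0.20 without that library. ODC1, the first enzyme of polyamine synthesis, had 5.80, 1.23 and 1.68 CPM in lf:Yap livers and 6.81, 3.82 and 18.3 CPM in WT livers, a log2 fold change of −1.73 ± 0.76 (adjusted p = 0.464, edgeR). The highest was eif4a1a, a translation initiation helicase, with 246, 99.8 and 81.2 CPM in lf:Yap livers and 63.1, 18.5 and 104 CPM in WT livers, a log2 fold change of 1.2 ± 0.66 (adjusted p = 0.576, edgeR). CAD, which starts pyrimidine synthesis and is named after its values were seen, had 78.3, 81.4 and 97.7 CPM in lf:Yap livers and 97.3, 149 and 378 CPM in WT livers (adjusted p = 0.376, edgeR).

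The other steps of ribosome assembly, given by wider lists, showed WT replicate 3 on top for most genes of the small and large subunit. Of 30 further small subunit genes 0 passed, all 30 had a log2 fold change below 0 (median −0.38), and 29 were highest in WT replicate 3; without it the median was 0.24. PWP2, a processome subunit, had 13.2, 13.4 and 7.50 CPM in lf:Yap livers and 7.14, 6.75 and 57.8 CPM in WT livers. With all 6 libraries the log2 fold change was −1.07 ± 0.83 (adjusted p = 0.722, edgeR) and 0.70 without WT replicate 3, which was 4.30 times the next library. The highest log2 fold change was that of rrp36, −0.01 ± 0.45 (adjusted p = 0.998, edgeR), with 6.01, 12.6 and 5.74 CPM in lf:Yap livers and 6.77, 4.93 and 12.8 CPM in WT livers.

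Of 36 further 60S genes 0 passed, 27 lay below 0 (median −0.31, and 0.13 without WT replicate 3), and 29 were highest in WT replicate 3. The lowest was urb1, an early 60S factor, with 5.55, 6.03 and 3.92 CPM in lf:Yap livers and 4.90, 3.997 and 25.5 CPM in WT livers. Its log2 fold change was −1.15 ± 0.70 (adjusted p = 0.620, edgeR) and 0.20 without WT replicate 3. The highest was senp3b, a SUMO protease of the nucleolus, with 249, 102 and 83.6 CPM in lf:Yap livers and 65.6, 20.5 and 109 CPM in WT livers, a log2 fold change of 1.15 ± 0.65 (adjusted p = 0.586, edgeR). The values of senp3b and eif4a1a were close in every library, and in the RefSeq assembly GRCz12tu both lie on chromosome 7 with 1 gene between them. Whether the 2 genes shared reads was not tested.

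For snoRNP assembly and ribosomal RNA methylation, 13 genes were measured, 0 passed, 12 lay below 0 (median −0.45), and 11 were highest in WT replicate 3. A snoRNP core protein gene, SNU13 (ENSDARG00000069878), had the lowest log2 fold change, −0.89 ± 0.60 (adjusted p = 0.666, edgeR), with 5.10, 9.06 and 3.06 CPM in lf:Yap livers and 8.18, 4.32 and 19.4 CPM in WT livers. RUVBL1, an ATPase that loads snoRNP proteins, had the highest among those whose higher group averaged 5 CPM or more, −0.05 ± 0.34 (adjusted p = 0.979, edgeR), with 6.46, 4.56 and 3.46 CPM in lf:Yap livers and 5.81, 3.28 and 5.92 CPM in WT livers. Without WT replicate 3 the median of the 13 was 0.03.

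The exosome trims the ends of ribosomal RNA, and of its 11 genes measured 0 passed, 9 lay below 0 (median −0.38, and 0.11 without WT replicate 3) and 9 were highest in WT replicate 3. MTREX, the helicase that feeds RNA into the exosome, had 14.7, 15.3 and 12.3 CPM in lf:Yap livers and 10.9, 12.5 and 37.3 CPM in WT livers. With all 6 libraries the log2 fold change was −0.52 ± 0.47 (adjusted p = 0.772, edgeR) and 0.26 without WT replicate 3. EXOSC1, an exosome cap protein, had 40.1, 51.5 and 71.9 CPM in lf:Yap livers and 28.1, 53.5 and 61.7 CPM in WT livers, a log2 fold change of 0.19 ± 0.35 (adjusted p = 0.905, edgeR).

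Transcription of ribosomal RNA was covered by 2 further lists. Of 6 further subunits and initiation factors of RNA polymerase I, 0 passed and 4 were highest in WT replicate 3; the median log2 fold change was −0.30, and −0.16 without that library. The gene ubtf, which encodes the factor that opens ribosomal DNA, was nearly level, with 57.9, 50.7 and 41.6 CPM in lf:Yap livers and 51.3, 52.2 and 55.8 CPM in WT livers (log2 fold change −0.08 ± 0.20, adjusted p = 0.929, edgeR). TAF1B, of the promoter selectivity factor, had 3.76, 4.15 and 4.06 CPM in lf:Yap livers and 6.99, 4.82 and 4.74 CPM in WT livers. All lf:Yap libraries of TAF1B were below all WT libraries, but its log2 fold change of −0.47 ± 0.25 did not pass (adjusted p = 0.553, edgeR). Of the 6 genes, groups did not overlap for 0 higher and 1 lower (8.84% and 8.78% of all tested genes).

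RNA polymerase III, which makes the 5S ribosomal RNA and transfer RNAs, gave 16 genes, of which 0 passed, 8 lay below 0 (median 0.03, and 0.40 without WT replicate 3) and 8 were highest in WT replicate 3. POLR3K, a small subunit of the enzyme, had 2.69, 20.2 and 12.9 CPM in lf:Yap livers and 3.98, 3.26 and 3.21 CPM in WT livers. High levels were in 2 of the 3 lf:Yap libraries only, and its log2 fold change was 1.77 ± 0.63 (adjusted p = 0.35, edgeR). The initiation factor gene brf1a had 7.53, 7.51 and 6.38 CPM in lf:Yap livers and 6.32, 3.78 and 36.4 CPM in WT livers, a log2 fold change of −1.12 ± 0.78 (adjusted p = 0.679, edgeR) and 0.48 without WT replicate 3. MAF1, the repressor of RNA polymerase III, which is named after its values were seen, had 20.2, 20.4 and 21.5 CPM in lf:Yap livers and 12.7, 11.01 and 7.67 CPM in WT livers (adjusted p = 0.160, edgeR). Of the 16 genes, groups did not overlap for 2 higher and 0 lower (8.84% and 8.78% of all tested genes).

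When ribosome assembly fails, free ribosomal proteins are known to block Mdm2 and so to stabilise p53, and 7 genes of that response were measured. None passed (edgeR; without adjustment 1 was higher and 0 lower at p under 0.05, against 6.12% and 5.2% of all tested genes), the median log2 fold change was −0.05, and 1 of the 7 was highest in WT replicate 3. SESN1, a p53 target that restrains growth signalling, had 188, 325 and 187 CPM in lf:Yap livers and 48.5, 107 and 44.0 CPM in WT livers. All lf:Yap libraries of SESN1 were above all WT libraries, with a log2 fold change of 1.81 ± 0.42 (adjusted p = 0.151 by edgeR and 0.00197 by DESeq2). The gene mdm2 itself had 5.07, 9.25 and 7.76 CPM in lf:Yap livers and 13.6, 9.99 and 9.98 CPM in WT livers, a log2 fold change of −0.61 ± 0.28 (adjusted p = 0.490, edgeR). All lf:Yap libraries of mdm2 were below all WT libraries. Of the 7 genes, groups thus did not overlap for 1 higher and 1 lower (8.84% and 8.78% of all tested genes).

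Markers of other cell types were read for WT replicate 3, since that library carried the high levels. The 4 oocyte marker genes summed to between 5.36 and 8.14 CPM in lf:Yap livers and between 5.65 and 7.47 CPM in WT livers, the last in WT replicate 3. Of the 4, 1 was highest in WT replicate 3. The 5 skeletal muscle marker genes summed to between 2.87 and 3.28 CPM in lf:Yap livers and to 6.71, 6.11 and 32.4 CPM in WT livers, and 2 of the 5 were highest in WT replicate 3, with none at 0. The 10 exocrine pancreas markers summed to 13513, 43.1 and 19218 CPM in lf:Yap livers and to 15850, 631 and 1519 CPM in WT livers. All 10 were highest in lf:Yap replicate 3. The 10 macrophage markers summed to between 72.3 and 217 CPM in lf:Yap livers and between 217 and 262 CPM in WT livers, with 0 of the 10 highest in WT replicate 3. No measured marker of hepatocytes (9 genes), cholangiocytes (8), endothelial cells (5) or lymphocytes (5) was highest there either (21.7% of all tested genes were). The same held for stellate cells (4), erythrocytes (4), intestine (3) and neutrophils (1). WT replicate 3 was the lowest library for 3 of the 4 stellate cell markers and 4 of the 8 cholangiocyte markers (18.9% of all tested genes). The same library was lowest for 2 of the 9 hepatocyte, 2 of the 5 endothelial cell and 2 of the 5 lymphocyte markers. In lists this short, such counts, 0 included, tell little. The part of muscle or of any other tissue in the levels of WT replicate 3 was not tested.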

How the data were processed

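Polyadenylated RNA from adult zebrafish livers was measured in 3 lf:Yap and 3 WT libraries. STAR 2.3.0e and HTSeq 0.6.0 were used, per the submitters' processing notes. What build and annotation were used, and whether reads were counted by strand, is not stated in the labels. In the form deposited, the table holds raw counts per Ensembl gene, not normalized by the authors as far as the values show. Groups and replicate numbers came from the sample titles.

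Symbols came from a table of Ensembl IDs and names (17999 of 25640 IDs had one). Transcript lengths were not used, so levels are not compared between genes, and no sequences are given. The test was edgeR's (version 4.0.16, R 4.3.3): filterByExpr kept 24674 genes, with TMM factors of 0.939 to 0.965 in lf:Yap and 1.019 to 1.108 in WT libraries, a robust quasi-likelihood F-test, two-sided, and Benjamini-Hochberg adjustment over all tested genes at 0.05. An SE is the absolute log2 fold change over the root of the F statistic. Levels relative to a gene's mean used log2(CPM + 0.5). Alternatives used DESeq2 1.42.0, limma-voom (limma 3.58.1), other scalings and filters, a replicate block, and leaving out each library. The smallest p of an exact permutation of 3 against 3 libraries is 0.1, and it was not used. The common biological coefficient of variation was 44.9%. Replicates differed far beyond sampling noise, so none was counted as a repeat.

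On simulated lf:Yap against WT data with 24071 genes tested, the test found 2 of 50 genes altered by 2-fold, 27 of 50 by 4-fold and 47 of 50 at both 8-fold and 16-fold, and 12 of its 135 calls were false. Genes of the lowest CPM were not among those altered. Noise was drawn separately for each gene, so the simulation held no shift shared by many genes, such as that of WT replicate 3.

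The member genes and lists were chosen with earlier results of these data known. Genes named with values were the Myc genes, nucleophosmins, nucleolin, snoRNP cores, PeBoW and RNA polymerase I members, the 6 of lowest p, the 4 of highest and 4 of lowest log2 fold change, and from each other list those past the threshold and the highest and lowest whose higher group averaged 5 CPM or more.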

Additional observations from a re-analysis of the deposited data

How the results depend on the processing

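The count of genes past the threshold over the whole table, 137 higher and 27 lower in lf:Yap livers, was 688 and 385 with DESeq2, 14 and 3 with a replicate block, and 27 to 72 and 5 to 22 when a library was left out. Equal replicate numbers gave no sign of pairing: deviations from the group mean correlated at 0.143, 0.0939 and −0.274, and for unequal numbers from −0.31 to 0.23. Deviations of 3 libraries within a group depend on one another, so these values do not settle whether libraries were paired. The block left 0 of the 45 genes past the threshold and gave mych an adjusted p of 0.0947 and MYCL one of 0.101 (edgeR). Of the 45 genes, 0 were called higher in every alternative; 1 was called lower with DESeq2, and 0 to 1 when a library was left out. At an unadjusted p under 0.05, 2 were lower with library totals only, and leaving out a library gave 0 to 1 higher and 1 to 3 lower. A filter of 5 CPM in 3 libraries left 39 of the 45 genes and 0 lower, since it removed MYC (ENSDARG00000045695). The number below 0 ranged from 9 (without WT replicate 3) to 41, and the median log2 fold change from −0.68 to 0.23, when a library was left out. With all libraries kept, 35 to 41 of the 45 genes were below 0, and 34 of the 39 left by the filter of 5 CPM. Limma-voom gave a median of −0.23 and the replicate block −0.21. Library totals only moved the median of all tested genes to −0.17 and gave the 45 genes a median of −0.59. With library totals only the adjusted p was 0.0553 for mych and 0.0587 for MYCL (edgeR). Upper-quartile factors gave 0.0584 for mych, while MYCL passed with 0.0453 (edgeR). Without a filter on low counts both passed (adjusted p = 0.0457 for mych and 0.0397 for MYCL, edgeR). The filter of 5 CPM in 3 libraries gave 0.0332 for mych and 0.0236 for MYCL (edgeR).

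Of the 45 genes, 34 changed sign when some library was left out, 31 of them without WT replicate 3. Among all genes whose log2 fold change is given in the text, 16 changed sign, none of which passed with any library left out: FBL from −0.97 to 0.59, npm1a from −1.09 to 0.48, DKC1 from −0.45 to 0.66, BOP1 from −1.01 to 0.33, NOC2L from −1.14 to 0.22, nolc1 from −0.0025 to 0.58, tsr1 from −1.14 to 0.37, BMS1 from −1.21 to 0.14, ubtf from −0.20 to 0.035, PWP2 from −1.48 to 0.70, rrp36 from −0.47 to 0.46, urb1 from −1.53 to 0.20, RUVBL1 from −0.32 to 0.14, EXOSC1 from −0.062 to 0.41, MTREX from −0.80 to 0.26 and brf1a from −1.56 to 0.48. The gene rrp36 was also at 0.0036 with DESeq2 and 0.0068 with limma-voom. The cause of these shifts was not tested, other than that the fits rest on 5 libraries.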
